A study of Homo sapiens with 2 samples.

Results

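The cleavage and polyadenylation factors described here are 10 genes taken by symbol from a table of 50867 gene rows. They are CPSF1, CPSF2, CPSF3, CPSF4, CPSF6, CPSF7, CSTF1, CSTF2, CSTF3 and NUDT21, and each symbol matched 1 row. HCT116 cells, an established line from a human colorectal carcinoma, had been transfected with siRNA against PHF5A (1 library, called the PHF5A knockdown library) or with control siRNA (1 library, called the control library). PHF5A is a core splicing protein of the SF3b complex, which helps the U2 small nuclear ribonucleoprotein to bind the branch point of an intron. The question was which transcripts depend on PHF5A in this kind of cell. With a single library on each side, the differences have no replicate check and carry no p-value. The siRNA sequence was not used here, and off-target effects and those of PHF5A loss cannot be told apart. In bulk RNA of this kind, fewer cells of a type and less RNA per cell cannot be told apart.

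Nearly all messenger RNAs get their 3′ end by endonucleolytic cleavage followed by addition of a poly(A) tail. The cleavage and polyadenylation specificity factor (CPSF) recognises the AAUAAA signal and cuts the RNA, the cleavage stimulation factor (CstF) binds GU-rich sequence downstream of the cut, and cleavage factor Im binds UGUA sequence upstream of it. The levels of these factors influence which of several poly(A) sites a transcript uses. The table is per gene, so poly(A) site choice itself was not analysed here.

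The PHF5A knockdown library held 25897412 counts and the control library 26552789. PHF5A had 91 counts in the knockdown library and 367 in the control library, which is 3.93-fold lower after scaling to the library totals (95% counting interval 3.12 to 5.005). Of 9 colorectal epithelial markers, 8 reached 1 FPKM (the number of fragments divided by gene length and by library total), and their summed level was 2031 FPKM in the knockdown library and 2024 FPKM in the control library, with VIL1 at 1 count in the knockdown library and 0 in the control library. Keratins KRT8, KRT18 and KRT19 dominate that sum, and CDX2, the intestinal transcription factor, had 367 counts in the knockdown library and 822 in the control library, 2.18-fold lower (1.93 to 2.48). Heart muscle markers moved with the groups. The summed level of 18 such genes was 3.47 FPKM in the knockdown library, where 8 of them had 0 counts, and 314 FPKM in the control library, where none did. They made up 0.00133% of the knockdown counts and 0.376% of the control counts. The 7 fibroblast markers summed to 2.72 FPKM in the knockdown library, with LUM at 0 counts there, and 14.3 FPKM in the control library. The 4 blood markers summed to 2.99 FPKM in the knockdown library and 4.22 FPKM in the control library, nearly all from CD68, while CD3E was at 0 in both. The part of these other transcripts in the values below was not tested.

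Transcripts of the cleavage and polyadenylation factors stayed close to the middle of the transcriptome. The log2 ratio of knockdown to control, computed after adding 1 to each FPKM, lay between -0.40 (CSTF2) and 0.33 (CSTF3) for the 9 factors that reached 1 FPKM in at least 1 library. CPSF2 did not reach it, with 0.832 FPKM in the knockdown library and 0.744 FPKM in the control library. The median over the 9 was -0.19, against -0.15 over all 8957 genes of at least 1 FPKM (the expressed genes). Of the 9, 7 lay inside the middle 50 percent of the expressed genes, between log2 ratios of -0.47 and 0.19.

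A difference of 2-fold or more was seen for 0 of the 9 factors. In the knockdown library 2.53% of the expressed genes were this much higher and 6.2% this much lower. At a 1.5-fold threshold the count was again 0 of 9 in each direction, with 8.45% of the expressed genes higher and 18.2% lower. By the CPM ratio (counts scaled to equal library totals) 1 of the 9, CSTF3, was 1.5-fold higher and 0 were lower, against 13% and 27.8% of the expressed genes. CSTF3 reached 1 FPKM in the knockdown library alone (1.18 FPKM, against 0.725 FPKM in the control library). It was thus among the 9 only through the library where it was higher. These counts are of size alone and come from 1 library per group.

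**Figure D1:**
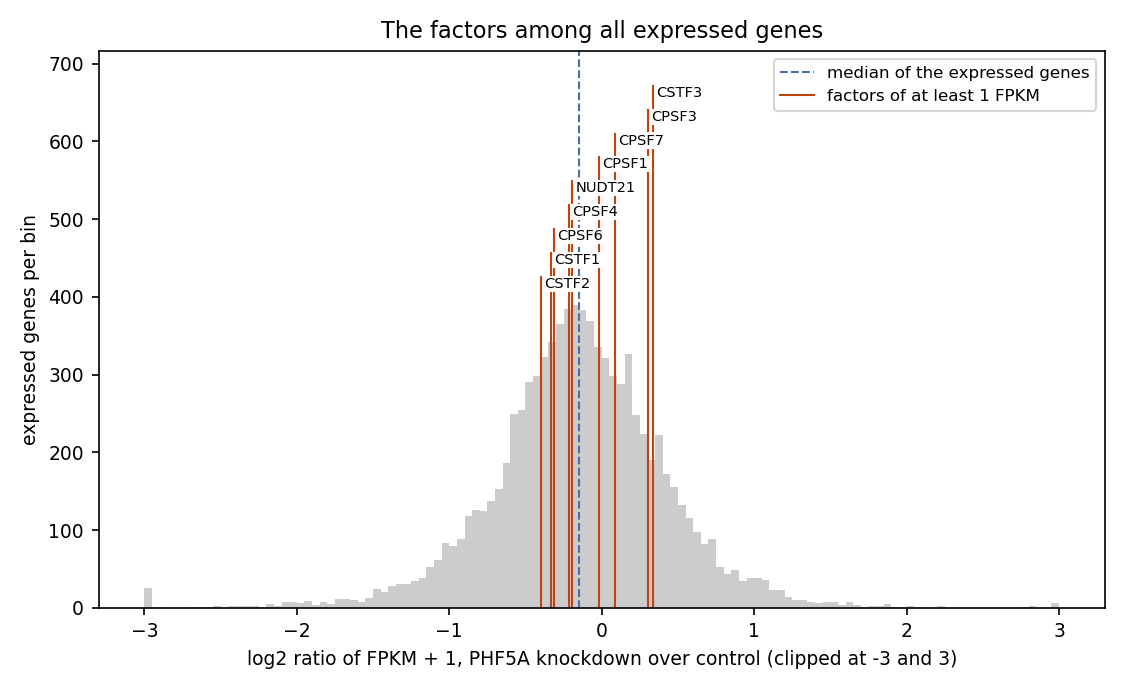
Histogram of the log2 ratio of FPKM + 1, PHF5A knockdown over control, for the 8957 expressed genes (x axis, values beyond -3 and 3 placed at the ends; y axis, genes per bin). Vertical lines mark the 9 factors of at least 1 FPKM, which lie between -0.40 and 0.33 around the dashed median of -0.15.

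Because several factors have close relatives, the sequences that decide whether reads can be assigned are shown first. CSTF2 lies on the X chromosome and has 14 exons in its principal GENCODE 29 transcript. CSTF2T, which also encodes a CstF RNA-binding subunit, is a single-exon copy on chromosome 10. Their coding sequences were 79.0% identical over 1733 aligned bases. The first 150 coding bases of each are printed, with the 25 differing positions in capitals, to show how densely the differences are spread.
CSTF2: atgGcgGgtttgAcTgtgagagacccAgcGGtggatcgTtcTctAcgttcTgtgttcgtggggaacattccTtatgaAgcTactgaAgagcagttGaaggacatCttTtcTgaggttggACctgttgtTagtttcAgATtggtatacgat
CSTF2T: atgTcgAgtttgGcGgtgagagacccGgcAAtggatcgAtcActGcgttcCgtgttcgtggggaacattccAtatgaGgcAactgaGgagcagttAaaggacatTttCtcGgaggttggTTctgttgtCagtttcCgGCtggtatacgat
The longest run shared exactly by the 2 whole transcripts was 41 bases, and 0 of 1909 windows of 50 bases in CSTF2 occurred in CSTF2T. Neither read length nor the handling of multi-mapped reads was given in the labels or the processing notes. CPSF6 and CPSF7 were 65.8% identical over 1370 aligned coding bases, and their longest shared run was 14 bases.

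CPSF1 encodes the largest CPSF subunit, a scaffold on which the signal-recognising subunits sit. It lies on chromosome 8 (144393229 to 144409349, minus strand, GRCh38). It had 11608 counts and 45.9 FPKM in the knockdown library, against 12049 counts and 46.4 FPKM in the control library. The levels were almost equal, with a CPM ratio of 0.988 and a counting interval of 0.963 to 1.01, the narrowest among the 10 genes. Its processed pseudogene CPSF1P1 had 27 counts in the knockdown library and 8 in the control library. CPSF1 alone supplied 63.6% of the counts of the 10 genes in the knockdown library and 61.5% in the control library.

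CPSF4 encodes the zinc-finger subunit that contacts the AAUAAA signal together with WDR33. It lies on chromosome 7 (99438922 to 99457371, plus strand). CPSF4 had 2442 counts and 12.2 FPKM in the knockdown library, against 2935 counts and 14.3 FPKM in the control library. The CPM ratio was 0.853 (interval 0.808 to 0.900), lower in the knockdown library but close to the median ratio of the expressed genes, 0.875. The opposite-strand gene PTCD1 spans the whole of CPSF4 and had 2384 counts in the knockdown library and 2378 in the control library. ATP5J2, also on the opposite strand, overlaps 8897 bases of CPSF4 and had 2412 counts in the knockdown library and 2125 in the control library. The sources used here do not state whether counting used the strand, so the CPSF4 value is uncertain, and summed with all overlapping entries its log2 CPM ratio was -0.003 in place of -0.23.

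CPSF3 encodes the endonuclease that makes the cut. It lies on chromosome 2 (9423568 to 9473101, plus strand), with 325 counts and 2.64 FPKM in the knockdown library, against 246 counts and 1.95 FPKM in the control library. CPSF3 was higher in the knockdown library, with a CPM ratio of 1.35 (interval 1.14 to 1.61), and its log2 ratio of 0.30 stood above 81.2% of the expressed genes. CPSF2 encodes its homologue in the same enzyme module, which lacks the nuclease activity. It lies on chromosome 14 (92121937 to 92172145, plus strand), with 309 counts in the knockdown library and 283 in the control library. The CPM ratio of CPSF2 was 1.12 and its counting interval, 0.950 to 1.32, included 1.

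CstF was uneven across its subunits. CSTF3, the dimeric scaffold that bridges CstF to CPSF, lies on chromosome 11 (33077188 to 33162371, minus strand). It had 196 counts and 1.18 FPKM in the knockdown library, against 124 counts and 0.725 FPKM in the control library. Its CPM ratio of 1.62 (interval 1.29 to 2.05) was the highest of the 10 genes. The adding of 1 FPKM reduced this low gene's log2 ratio to 0.33, where CPM gave 0.69. The opposite-strand genes TCP11L1 (109 counts in the knockdown library and 103 in the control library) and LINC00294 (39 and 28 in that order) overlap its 3′ end, and summed with all overlapping entries the log2 CPM ratio was 0.46.

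CSTF2 encodes the subunit that binds the GU-rich element through its RNA recognition motif. It lies on chromosome X (100820359 to 100840932, plus strand) and had 384 counts and 5.12 FPKM in the knockdown library, against 544 counts and 7.07 FPKM in the control library. CSTF2 was lower in the knockdown library, with a CPM ratio of 0.724 (interval 0.633 to 0.826). CSTF1 encodes the WD-repeat subunit and lies on chromosome 20 (56392371 to 56406369, plus strand). CSTF1 had 506 counts and 2.59 FPKM in the knockdown library, against 705 counts and 3.52 FPKM in the control library. The CPM ratio of CSTF1, 0.736 (interval 0.655 to 0.826), was close to that of CSTF2, and no entry overlaps either gene.

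CSTF2T, which is not among the 10 factors, went the other way from CSTF2. It had 401 counts and 3.77 FPKM in the knockdown library, against 305 counts and 2.80 FPKM in the control library, a CPM ratio of 1.35 (interval 1.16 to 1.57). CSTF2T therefore supplied 51.1% of the counts of the pair in the knockdown library (exact binomial 95% interval 47.5 to 54.6) and 35.9% in the control library (32.7 to 39.3). The summed counts of the pair were 785 in the knockdown library and 849 in the control library, a CPM ratio of 0.948 whose interval, 0.859 to 1.05, included 1.

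Cleavage factor Im is built from NUDT21, which reads UGUA, and a large subunit that is either CPSF6 or CPSF7. NUDT21 lies on chromosome 16 (56429133 to 56452199, minus strand), with 661 counts and 3.71 FPKM in the knockdown library, against 801 counts and 4.38 FPKM in the control library. Its CPM ratio was 0.846 (interval 0.762 to 0.939), and like that of CPSF4 its interval included the median ratio of the expressed genes. The opposite-strand gene OGFOD1 overlaps NUDT21 over 710 bases and had 366 counts in the knockdown library and 603 in the control library, and summed with it the log2 CPM ratio was -0.41 in place of -0.24.

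The alternative large subunits differed from each other. CPSF6, on chromosome 12 (69239537 to 69274358, plus strand), had 416 counts and 1.74 FPKM in the knockdown library, against 589 counts and 2.40 FPKM in the control library. It was lower in the knockdown library, with a CPM ratio of 0.724 (interval 0.637 to 0.822). CPSF7, on chromosome 11 (61402641 to 61430031, minus strand), had 1393 counts and 3.27 FPKM in the knockdown library, against 1315 counts and 3.01 FPKM in the control library, a CPM ratio of 1.09 (interval 1.01 to 1.17). The opposite-strand entry RP11-286N22.8 overlaps CPSF7 and had 235 counts in the knockdown library and 158 in the control library, so the CPSF7 value is uncertain too, and summed with all overlapping entries its log2 CPM ratio was 0.18 in place of 0.12.

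The counting interval of the CPM ratio excluded 1 for 8 of the 10 genes, 3 higher and 5 lower in the knockdown library. Against the median ratio of the expressed genes, 0.875, the intervals of 5 genes lay above (CPSF1, CPSF2, CPSF3, CPSF7 and CSTF3) and those of 3 below (CPSF6, CSTF1 and CSTF2). CPSF2 is not itself among the expressed genes. The share of all expressed genes with intervals above or below this median was not counted, so these numbers do not set the factors apart. An interval excluding 1 was found for 28.4% of the expressed genes in the higher direction and 50.7% in the lower direction, so a ratio outside counting error was common in these libraries.

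**Figure D2:**
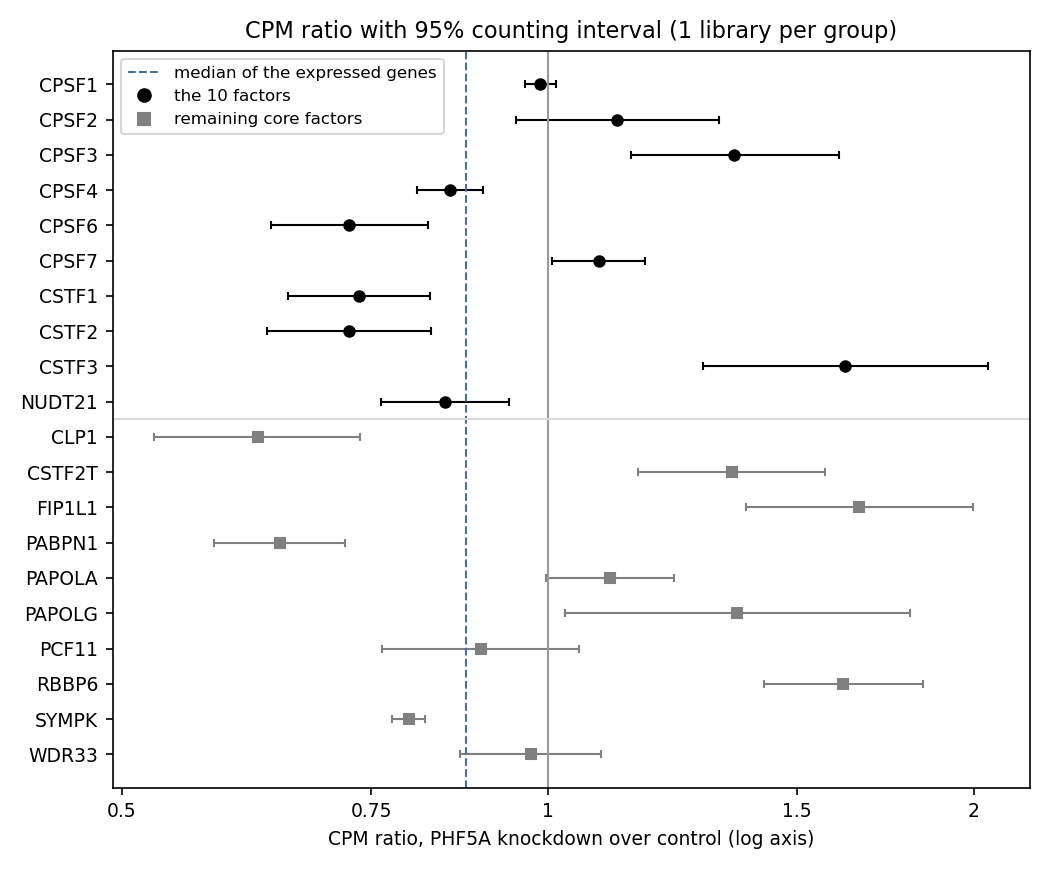
CPM ratio of the PHF5A knockdown library over the control library (x axis, log scale) for the 10 factors (black) and 10 further core factors (grey), with 95% exact counting intervals as bars. The dashed line is the median ratio of the expressed genes, 0.875; CSTF3 at 1.62 and CPSF3 at 1.35 lie to its right, CSTF2 and CPSF6 at 0.724 to its left.

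The direction of 3 factors depended on the scaling of the libraries. The small RNAs 7SL, RN7SK and RPPH1 made up 25.8% of the knockdown counts and 16.5% of the control counts, and they enter the FPKM denominators. With FPKM as deposited, CPM, median centring, upper-quartile scaling, denominators without those RNAs and TPM (rescaling to an equal sum over genes), CPSF3 and CSTF3 were above 0 each time. Under the same scalings CPSF4, CPSF6, CSTF1, CSTF2 and NUDT21 were below 0 each time. CPSF4 and NUDT21 were close to 0 under median centring, at -0.065 and -0.045. Their counting intervals included the median ratio, so no direction relative to the expressed genes is shown for them. CPSF1, CPSF2 and CPSF7 changed sign. Under TPM the log2 ratios of CPSF1, CPSF2 and CPSF7 were -0.43, -0.12 and -0.24, and under median centring 0.13, 0.22 and 0.24. The median over all genes of at least 1 TPM was -0.47 under TPM, and CPSF3, at 0.01 there, stood well above it.

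**Figure D3:**
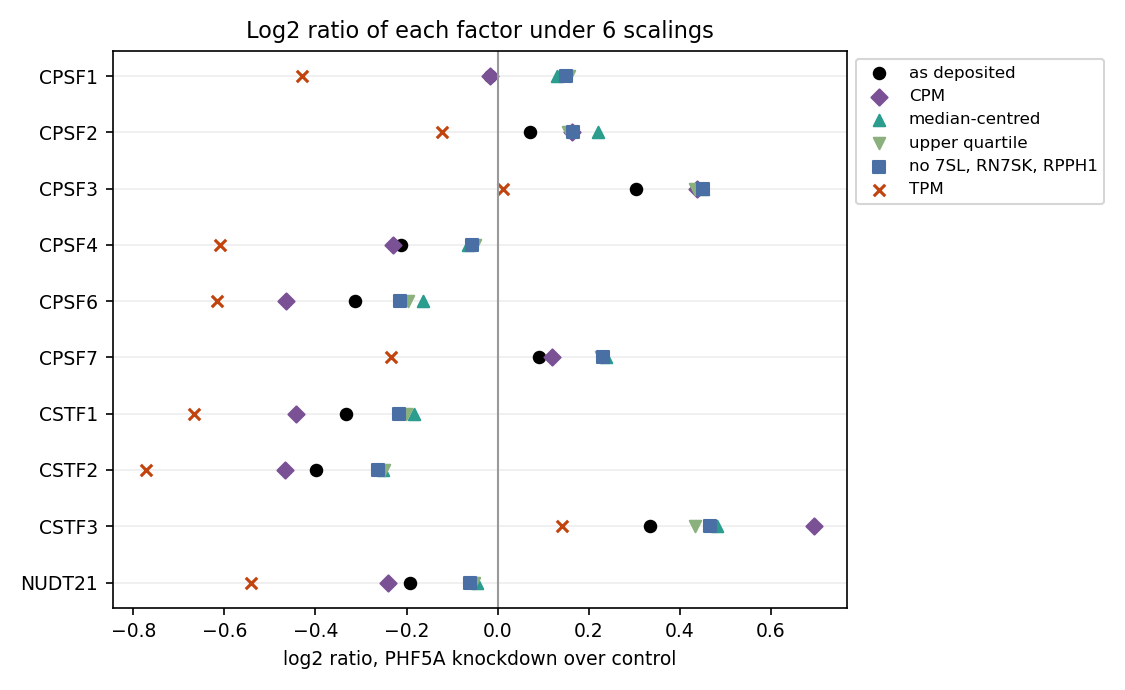
Log2 ratio of PHF5A knockdown over control (x axis) for each factor (rows) under 6 scalings (symbols). CSTF3 and CPSF3 stay above 0 and CSTF2, CSTF1, CPSF6, CPSF4 and NUDT21 below 0 under each, while CPSF1, CPSF2 and CPSF7 lie on both sides. CPSF4 and NUDT21 come close to 0 under median centring.

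The ratio of 2 genes within a library does not depend on the scaling, so the balance between subunits was compared in 7 pairs. CSTF2 stood at 4.35 times the FPKM of CSTF3 in the knockdown library and at 9.75 times in the control library, which is 2.24-fold lower (counting interval 1.71 to 2.93). CSTF1 stood at 2.21 times the FPKM of CSTF3 in the knockdown library and at 4.86 times in the control library, 2.20-fold lower (1.70 to 2.86). Both values share the low counts of CSTF3, 196 in the knockdown library and 124 in the control library. With overlapping entries summed into each gene, the shifts were 1.90-fold (1.54 to 2.35) for CSTF2 and 1.87-fold (1.53 to 2.29) for CSTF1, so neither then reached 2-fold. Such a sum adds the whole count of each overlapping gene, also from outside the overlap. It therefore mixes in other transcripts and does not show how many reads were assigned to the wrong strand.

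CSTF2 over CSTF2T was 1.36 in the knockdown library and 2.53 in the control library, 1.86-fold lower (1.52 to 2.28). CPSF7 over CPSF6 was 1.88 in the knockdown library and 1.26 in the control library, a ratio of 1.4997 (1.29 to 1.74), just under 1.5-fold, and 1.56 (1.35 to 1.81) with overlapping entries summed. The shift within cleavage factor Im was thus towards CPSF7 in the counts of these libraries. CPSF7 over NUDT21 was 0.883 in the knockdown library and 0.688 in the control library, a ratio of 1.28 (1.13 to 1.46), or 1.51 (1.35 to 1.68) with overlapping entries summed. The intervals of the remaining pairs included 1, with CPSF6 over NUDT21 at 0.856 (0.725 to 1.01) and CPSF2 over CPSF3 at 0.827 (0.651 to 1.05).

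Shifts of this size between 2 genes were common. Of the 7 pairs, 3 shifted by at least 1.5-fold, and 57.2% of all pairs of expressed genes were that far apart in CPM ratio. At least 2-fold applied to 2 of the 7 pairs and to 35.2% of all pairs. With overlapping entries summed these counts were 5 pairs at 1.5-fold and 0 at 2-fold. The shares of all pairs are for genes without such sums, so the summed counts have no like share beside them. The shifts therefore describe these transcripts and do not set them apart from other genes.

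**Figure D4:**
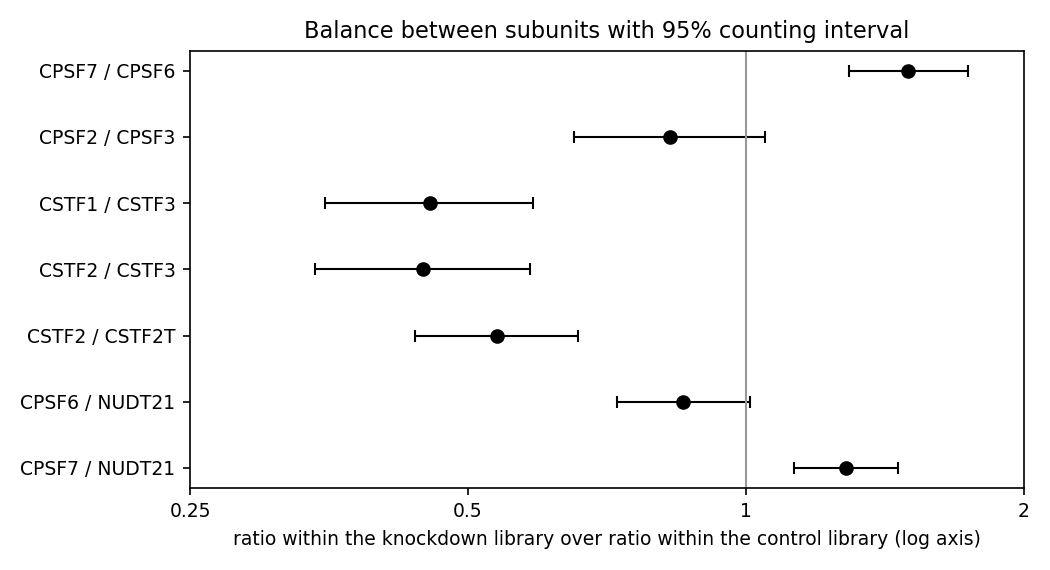
For 7 pairs of subunits, the FPKM ratio within the PHF5A knockdown library divided by that within the control library (x axis, log scale), with 95% exact counting intervals as bars. CSTF2 and CSTF1 against CSTF3 lie lowest, at 0.447 and 0.454, and CPSF7 against CPSF6 highest, at 1.4997.

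The factors covered a wide range of levels, and their order depended on the gene length used. In the deposited FPKM, the length of a gene was within 1% of the sum of all its distinct GENCODE 29 exons for 86.9% of 9961 genes with over 100 control counts, so that overlapping exons of different transcripts were counted repeatedly. CPSF7 has 26 annotated transcripts, and the length in its FPKM was 16431 bases, or 2.72 times its merged exons (6036 bases). For CPSF2 the same quotient was 1.05. CPSF6 and CSTF3 did not follow the rule. The lengths in their FPKM were 9246 and 6440 bases, against distinct exon sums of 14953 and 7129 bases. The exons counted for CPSF6 and CSTF3 may therefore differ from those of GENCODE 29, and their levels per merged exon length are uncertain. Ratios between the libraries are not affected by the length, apart from the added 1 FPKM.

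Per kilobase of merged exons, CPSF1 was the most abundant factor, with 73.8 FPKM in the knockdown library and 74.7 FPKM in the control library. CPSF4 followed with 22.19 FPKM in the knockdown library and 26.01 FPKM in the control library, and CPSF2 was lowest with 0.878 FPKM in the knockdown library and 0.784 FPKM in the control library. CPSF7 had 8.91 FPKM on this scale in the knockdown library and 8.20 FPKM in the control library, and so held place 3 of 10 and place 4 of 10, where the deposited FPKM gave 5 and 6.

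The order of CSTF2 and CPSF7 differed between the libraries. CSTF2 was below CPSF7 in the knockdown library, at 6.78 FPKM, and above it in the control library, at 9.37 FPKM, where the ratio of CSTF2 to CPSF7 was 1.14 (counting interval 1.03 to 1.26). NUDT21 (4.29 FPKM in the knockdown library and 5.07 FPKM in the control library) and CSTF1 (4.07 and 5.53 FPKM) did not differ beyond counting error in either library. The same held for CPSF6 and CSTF3 in the knockdown library, and for CPSF6 and CPSF3 in the control library. CPSF7 exceeded CPSF6 on this scale by 4.48 times in the knockdown library and by 2.99 times in the control library, and CPSF6 had 1.99 and 2.74 FPKM. These quotients, and the places of CPSF6 and CSTF3, rest on merged lengths that may not match the exons counted.

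**Figure D5:**
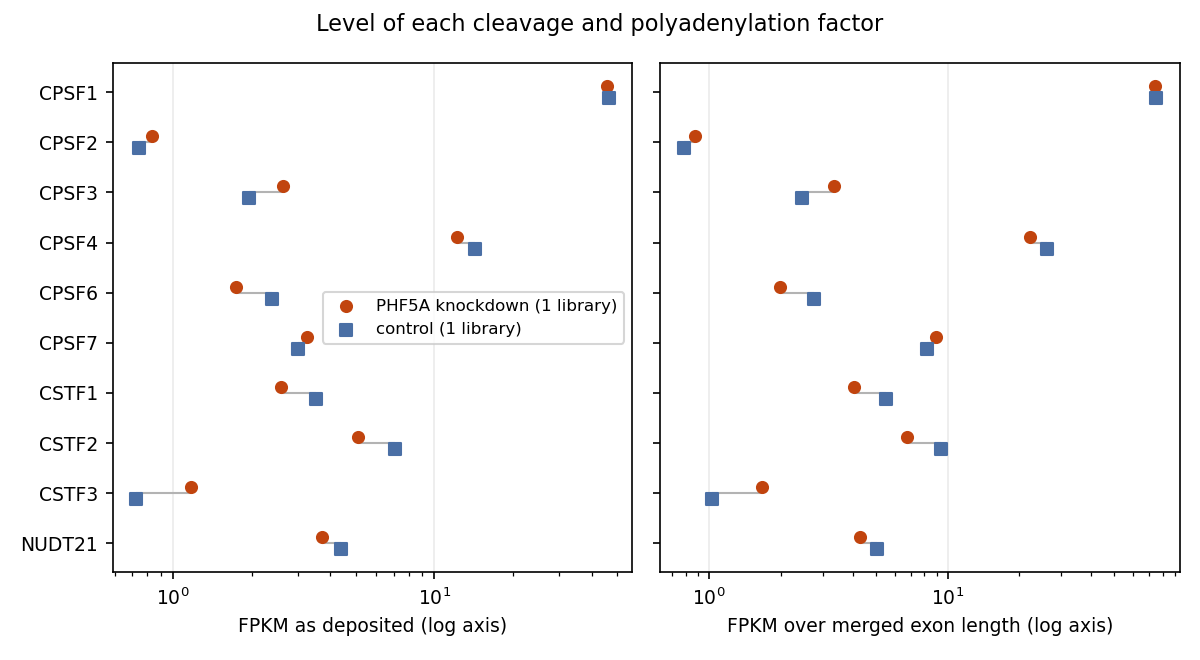
Level of each factor in the PHF5A knockdown library (circles) and the control library (squares), as deposited FPKM (left panel) and as FPKM over merged exon length (right panel), both on log axes. CPSF1 is the highest in each panel, and CPSF7 moves up from about 3 to over 8 FPKM when exons are merged.

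The promoters of the factors were searched for short motifs chosen after the sequences had been seen. RefSeq windows of 250 bases before to 50 bases after the gene start (GRCh38.p14) were at hand for 9 of the 10 genes, all but CPSF1. The 8-base ETS-family motif CCGGAAGT, on either strand, occurred in 5 of these 9 genes (CPSF3, CPSF7, CSTF1, CSTF3 and NUDT21) and in 4.95% of 27305 genes with such windows. The 27305 were not limited to expressed genes, and the share among genes more like the factors was not counted. The genes with it include factors that were higher and factors that were lower in the knockdown library. Stretches of 120 bases with the motif in capitals are shown for 4 of them, read in the direction of the gene, because they let the place of the motif be compared; in CSTF1 it crosses the start site. Start sites differ between annotations, and the 4 stretches lie wholly or partly inside the gene bounds given above.
CPSF3 (chr2:9423534-9423653, plus strand): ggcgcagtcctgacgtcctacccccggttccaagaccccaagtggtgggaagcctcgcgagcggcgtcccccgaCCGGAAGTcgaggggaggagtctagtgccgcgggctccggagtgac
CSTF3 (chr11:33161481-33161600, minus strand): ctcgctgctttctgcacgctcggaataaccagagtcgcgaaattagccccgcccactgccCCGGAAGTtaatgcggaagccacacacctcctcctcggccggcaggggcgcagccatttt
CPSF7 (chr11:61429976-61430095, minus strand): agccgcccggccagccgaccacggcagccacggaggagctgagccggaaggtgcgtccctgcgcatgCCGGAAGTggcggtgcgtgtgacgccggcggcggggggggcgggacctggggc
NUDT21 (chr16:56451333-56451452, minus strand): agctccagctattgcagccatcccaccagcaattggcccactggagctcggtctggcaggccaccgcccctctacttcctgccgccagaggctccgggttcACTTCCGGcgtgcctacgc
In NUDT21 the capitals are the motif on the opposite strand. The NRF1 motif occurred in 3 of the 9 genes and in 6.98% of all, CCAAT in 6 of 9 and in 39.7%, the YY1-type ATGGCGGC in 1 of 9 (CPSF2) and in 3.67%, and TATAAA in 0 of 9 and in 14.0%. All were searched on both strands, and a match is a description of the letters only.

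Of 11 remaining core factors of the reaction 8 were expressed, with a median log2 ratio of 0.03, and none was 1.5-fold higher or lower on the scale of FPKM + 1. By the CPM ratio 2 were higher (FIP1L1 and RBBP6) and 2 lower (PABPN1 and CLP1), against 13% and 27.8% of the expressed genes. FIP1L1 and RBBP6 reached 1 FPKM in the knockdown library alone, at 1.30 and 1.42 FPKM. In the control library they had 0.787 and 0.877 FPKM. Both thus entered the list through the library where they were higher, and the 2 calls depend in part on that filter. PABPN1, the nuclear poly(A)-binding protein, had 565 counts in the knockdown library and 896 in the control library (log2 ratio -0.48), and part of it is shared with the same-strand read-through entry BCL2L2-PABPN1. CLP1, a subunit of cleavage factor IIm, had 230 counts in the knockdown library and 378 in the control library (-0.40).

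FIP1L1, which links CPSF to poly(A) polymerase, had 309 counts in the knockdown library and 191 in the control library (0.37), and RBBP6, a cleavage activator, had 612 and 388 in that order (0.37). SYMPK, the scaffold that joins the nuclease module to CstF, had 9376 counts in the knockdown library and 12058 in the control library (-0.31). The poly(A) polymerase PAPOLA had a log2 ratio of 0.08 and WDR33 of -0.02. The deposited annotation of the KEGG mRNA surveillance pathway, which holds 9 of the 10 factors, had 53 expressed genes with a median of -0.08. Of these, 0 were 2-fold higher and 0 were 2-fold lower, against 2.53% and 6.2% of the expressed genes. At 1.5-fold 0 were higher and 1 was lower, against 8.45% and 18.2%.

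Among 11 expressed termination-associated genes 0 were 1.5-fold higher and 2 were 1.5-fold lower on the scale of FPKM + 1. The latter is the share of the expressed genes, 18.2%. By the CPM ratio 3 were lower, against 27.8% of the expressed genes. WDR82, a subunit of a nuclear protein phosphatase complex, had 4.67 FPKM in the knockdown library and 9.40 FPKM in the control library (log2 ratio -0.88). RPRD1B, which binds the tail of RNA polymerase II, had 1.14 FPKM in the knockdown library and 2.52 FPKM in the control library (-0.72). The opposite-strand gene TGM2 overlaps RPRD1B by 394 bases and had 1602 counts in the knockdown library and 4007 in the control library. RPRD1B had 263 and 595 in that order, so its value is uncertain. After WDR82 and RPRD1B, PPP1CB (-0.53) and the exonuclease gene XRN2 (0.36) were the next in size.

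The Integrator complex cuts small nuclear RNA precursors with a nuclease homologous to CPSF3. That nuclease, INTS11 (listed as CPSF3L), had 2473 counts in the knockdown library and 5263 in the control library. By the CPM ratio it was 2.08-fold lower (interval 1.98 to 2.18). On the scale of FPKM + 1 it was the 1 gene past 1.5-fold of 9 expressed Integrator genes. That is a smaller share than the 18.2% lower among all expressed genes. By the CPM ratio 2 of the 9 were lower, CPSF3L and INTS4 (1.84-fold), against 27.8% of the expressed genes. The log2 ratio of CPSF3L was -0.88 while that of CPSF3 was 0.30. The opposite-strand gene PUSL1, which overlaps CPSF3L by 93 bases, had 2505 counts in the knockdown library and 1334 in the control library. INTS4 (-0.55), INTS5 (-0.49) and INTS2 (-0.20) followed, and the median of the 9 was -0.18.

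Of 6 factors for the 3′ ends of histone messages, 3 were expressed. SLBP, the stem-loop binding protein, had 320 counts in the knockdown library and 485 in the control library (-0.43), ZNF473 had a log2 ratio of -0.24 and LSM10 of -0.10. The 3 proteins of the U1 small nuclear ribonucleoprotein, which is known to restrain premature polyadenylation, had log2 ratios of 0.30 (SNRNP70), 0.28 (SNRPA) and 0.13 (SNRPC). Among 5 other poly(A) and uridyl polymerases 2 were expressed. TUT1 had 2681 counts in the knockdown library and 770 in the control library (1.58), but the same-strand entry RP11-864I4.1, which covers 16487 bases of it, had 30 counts in the knockdown library and 10438 in the control library, so the TUT1 value is uncertain. PAPD7 had a log2 ratio of -0.33.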

How the data were processed

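Total RNA was extracted with Trizol, and a TruSeq stranded kit was used for the libraries, per the labels' protocols. HISAT2 2.0.4, Cuffdiff and the hg38 (GRCh38) genome were used, per the submitters' processing notes; counter, strand setting and annotation release are not stated there. For every gene the deposited table gives, per the file headers, a count (whole numbers) and an FPKM value in each library. The deposited FPKM is the count over 1 length per gene and the library total. Left out was 1 gene whose row was split into 2 lines.

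The log2 ratio of FPKM + 1 was the main measure; expressed genes reached 1 FPKM in either library, and calls were by size (2-fold and 1.5-fold). Ratios of CPM, and ratios of levels within a library, carry a 95% exact conditional binomial interval. Pairs carry an exact conditional interval of the odds ratio. All treat each count as independent and reflect counting error alone. Amplified reads do not stand for separate molecules, so the intervals may be too narrow even for that error. With 1 library per group no test across samples was possible. The members, gene lists and naming rule (all 10 factors, and up to 4 genes of each other list by absolute log2 ratio) were chosen with earlier results of these data known; CSTF2T, SYMPK, PAPOLA, WDR33 and the overlapping entries were named in addition. Merged exon lengths, strands and transcripts are from GENCODE 29, which matched 50110 identifiers and not 757. The 2-fold call on FPKM + 1 and the CPM interval were tested on simulated counts. Those held counting error alone, and changes larger than those of the factors. The other steps were not tested in this way. Software was pandas 2.3.3, Biopython 1.88, scipy 1.17.1, numpy 2.4.6 and matplotlib 3.10.9 under Python 3.11.15.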

Additional observations from a re-analysis of the deposited data

How the results depend on the processing

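No paired analysis was possible because each group had a single library. The median log2 ratio of the factors, -0.19 as deposited, was -0.54 with TPM rescaling, beyond the counting margin of NUDT21, the middle gene. With FPKM denominators without 7SL, RN7SK and RPPH1 the median was 0.046, also beyond that margin. CPSF2 then passed 1 FPKM, so that median was over 10 factors and not 9. Without CPSF2 the middle factor there was CPSF4 at -0.056, and NUDT21 was at -0.060. Relative to the expressed genes the median lay between -0.08 and 0.05 under every alternative run. These ends are not from the same factors. The lower is over the 3 factors of at least 5 FPKM, and the upper over 10 factors without those small RNAs. The counts at 2-fold were 0 under each alternative. At 1.5-fold, 1 factor (CSTF3) was higher with a pseudocount of 0.1 FPKM, where 12.5% of the genes were. With CPM and a prior of 0.5 counts CSTF3 was again the 1 factor higher, where 13% of the genes were. It passed the filter of 1 FPKM through the knockdown library alone. With TPM rescaling 4 factors (CPSF4, CPSF6, CSTF1 and CSTF2) were lower, where 40.2% of the genes were. CSTF2 over CSTF3, 0.447 by the own entry of CSTF2, was 0.585 with CSTF2T added to CSTF2, and CPSF7 over NUDT21, 1.28, was 1.51 with overlapping entries summed. Among settings that can change a single gene's ratio, 20 of 80 values of single factors moved beyond the counting margin. Leaving out the heart muscle markers, merging exons and summing overlapping entries in pairs were chosen after seeing the data. Low counts limit CSTF3, CPSF3 and CPSF2 most.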
